A study of Homo sapiens with 3 samples.

Results

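The acute phase and carrier plasma protein genes were 10 genes whose products the liver secretes into blood: HP, HPX, ORM1, CP, CRP, SAA1, LBP, ALB, TTR and AFP. They were taken by symbol, and each was read by 1 probe set that carries no other gene's symbol, which made 10 of 18417 measured genes. The study used HepG2, a human line derived from a liver tumour, which secretes many plasma proteins. Its 3 arrays held 1 sample each of cells given graphene oxide (GO) for 24 h, of cells given reduced graphene oxide (rGO), from which part of the oxygen has been removed, for 24 h, and of untreated control cells. Each material was given at its own EC20, the dose tied to a 20% effect in viability assays. The labels do not state the doses themselves, so the 2 exposures stand side by side without a comparison between them. HepG2 cells are a single tumour-derived line cultured without the leukocytes that send inflammatory signals to the liver in the body.

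Acute phase proteins are secreted by hepatocytes in amounts that change during infection or injury, mainly under interleukin-6 and interleukin-1. The positive ones rise in that response, and the negative ones, which include albumin and transthyretin, fall while the liver turns to other secreted proteins. Many members bind a cargo in blood: haemoglobin for haptoglobin, haem for hemopexin, copper for ceruloplasmin, thyroid hormone for transthyretin and fatty acids for albumin.

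Values are deposited log2 expression values, so a difference of 1 is a doubling, and differences are each exposed array minus the control array. With 1 array per group no value has an error and no test was possible. A gene passed the level filter where its mean over the 3 arrays reached log2 6.66, the 40th percentile of all genes, which 11050 genes did. Of the members 7 passed (HP, HPX, ORM1, CP, ALB, TTR and AFP), while CRP, SAA1 and LBP did not. The array medians over 33297 probe sets were 6.63 (GO), 6.66 (rGO) and 6.65 (control). A size of 1.5-fold (log2 difference of 0.58) was used to count genes. Different probe sets respond differently to the same amount of RNA, so values are compared between arrays within a gene and not between genes.

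In the GO array CP and TTR were higher than in the control array, HP was lower, and ALB differed from control by less than any other member past the filter. Of the 10 members, 2 stood 1.5-fold or more above control with GO and 1 stood as far below it. Among all measured genes 1.41% were that far above control and 2.99% that far below. No member reached 2-fold with GO, a size that 0.174% of all genes passed upward and 0.603% downward. The 3 members all passed the level filter, where these shares were 1.91% and 4.23%. In the rGO array 0 members reached 1.5-fold, against 0.076% of all genes above control and 0.282% below, or 0.0271% and 0.127% of those past the filter. Since every value comes from cells in bulk, fewer cells of a type and less RNA per cell cannot be told apart.

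**Figure D1:**
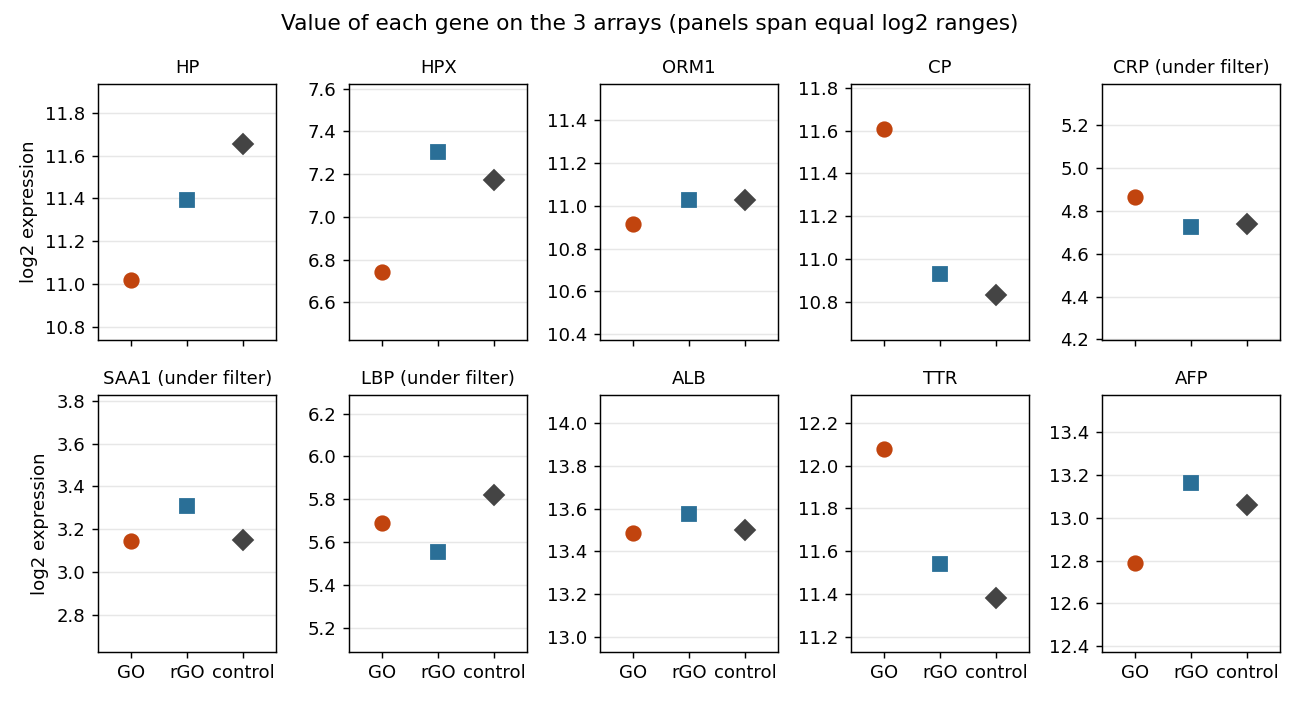
Each panel plots 1 gene's log2 expression on the GO, rGO and control arrays, 1 point per array with no replicates, on axes that all span the same number of log2 units at different levels. CP and TTR have the GO point on top, HP and HPX have it at the bottom, and the ALB points lie close together.

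Haptoglobin (HP), a positive acute phase protein that binds free haemoglobin, had a log2 value of 11.02 with GO and 11.39 with rGO, against 11.65 in control cells. Both exposed arrays lay under control, and the GO array was the lowest. The GO difference was -0.63, or 1.55-fold lower, place 377 from the lowest of 11050 genes past the filter. The rGO difference was -0.26, or 1.20-fold lower, place 361 from the lowest. HP was about as far down the ordered list of genes in both comparisons, although its difference with rGO was smaller and both comparisons use the same control array.

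HPR, the haptoglobin-related gene that lies next to HP in RefSeq gene order, had 9.31 with GO and 9.68 with rGO, against 9.78 in control cells. Its differences were -0.47 with GO and -0.098 with rGO. HP and HPR are close copies, so a probe set of one may also read the other and their values are not independent.

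Hemopexin (HPX), which binds free haem, had 6.74 with GO and 7.30 with rGO, against 7.17 in control cells. It was 1.35-fold lower with GO (-0.43) and 1.09-fold higher with rGO (0.13). The GO array was the lowest of the 3 and close to the filter level of 6.66, where background makes up more of a signal.

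Ceruloplasmin (CP), a copper-carrying ferroxidase and positive acute phase protein, had 11.61 with GO and 10.93 with rGO, against 10.83 in control cells. The GO array stood clear of the other two. CP was 1.71-fold higher with GO (0.78), the largest difference from control among the 10 members, and it took place 76 from the highest of 11050 genes. With rGO its difference was 0.096.

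The copper handling genes fixed beside CP did not show a difference of that size. Of 10 past the filter 6 were above control with GO, and their median was 0.038. Over all genes past the filter 51.1% were above control, and the median was 0.0061. The count past 1.5-fold was 0 either way, a size that only 1.91% of all genes past the filter reached upward and 4.23% downward. ATP7B, the transporter that loads copper onto ceruloplasmin, had 9.51 with GO and 9.61 with rGO, against 9.60 in control cells. The largest GO differences among these 10 were those of COMMD1, a regulator of copper transporters (-0.34), SLC31A2, a copper transporter (0.27), and CCS, the copper chaperone of superoxide dismutase (-0.18). With rGO the largest difference among the 10 was that of SLC40A1 (-0.22), the iron exporter that works with ferroxidases, and their median was -0.055 against -0.0084 over all genes past the filter.

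Orosomucoid 1 (ORM1), an acid glycoprotein that binds drugs in plasma, had 10.91 with GO, against 11.03 both with rGO and in control cells. Its differences were -0.11 with GO and 0.0032 with rGO. Its neighbour and close copy ORM2 had 11.29 with GO and 11.26 with rGO, against 11.25 in control cells, and its differences were 0.042 and 0.011. The GO differences of the pair had opposite signs, and probe sets of such near-identical copies can share signal.

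**Figure D2:**
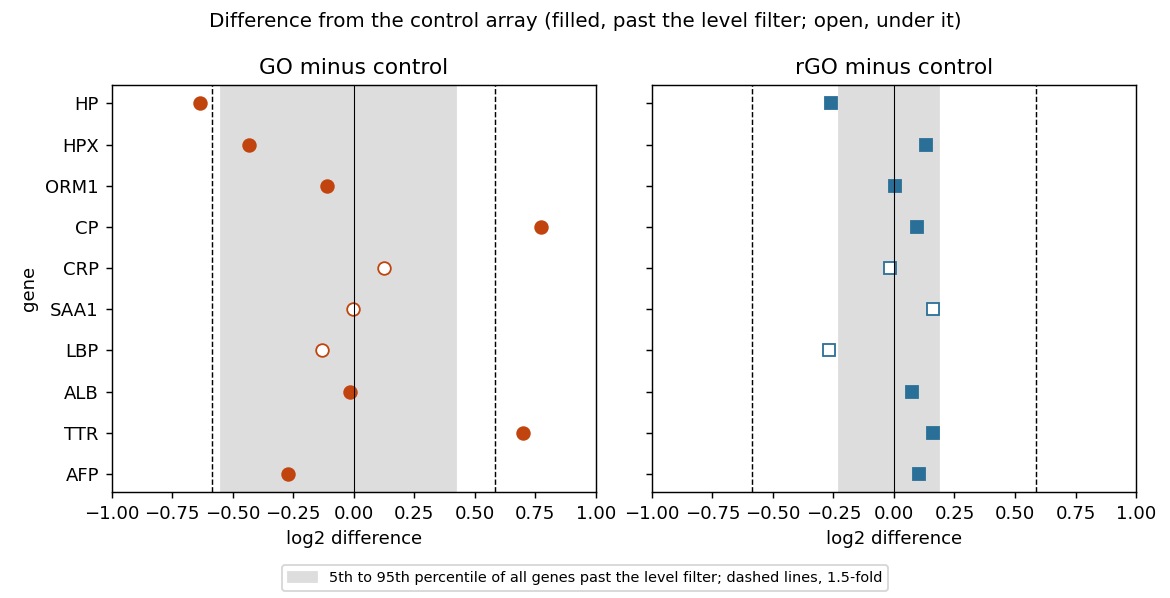
Points are log2 differences of the 10 genes from the control array, GO on the left and rGO on the right, filled where the gene passed the level filter, over a grey band from the 5th to the 95th percentile of all genes past the filter. With GO the points of CP, TTR and HP lie outside the band and outside the dashed 1.5-fold lines, and with rGO HP and the open point of LBP lie outside the band and no point reaches the dashed lines.

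The 3 members under the level filter recognise or respond to microbes. C-reactive protein (CRP), an opsonin that binds phosphocholine, had 4.87 with GO and 4.72 with rGO, against 4.74 in control cells. Serum amyloid A1 (SAA1), an inducible apolipoprotein of the acute phase, had 3.15 with GO and 3.31 with rGO, against 3.15 in control cells. Lipopolysaccharide-binding protein (LBP), which passes bacterial lipid to CD14, had 5.69 with GO and 5.55 with rGO, against 5.82 in control cells.

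None of these 3 genes stood more than 0.27 log2 units from control in either exposure. The differences of CRP were 0.13 with GO and -0.016 with rGO, and those of SAA1 were -0.0011 and 0.16. LBP differed by -0.13 with GO and by -0.27 with rGO, where it was 1.21-fold lower. Under the filter the 5th and 95th percentiles of the GO differences were -0.37 and 0.30, and those of the rGO differences were -0.34 and 0.25, so all 3 genes lay within the range of 9 in 10 genes at such levels. The files give no detection calls, so whether these genes were expressed at all cannot be told.

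SAA2, a close copy of SAA1, was read by 2 probe sets, also under the filter. The brighter one had 5.42 with GO and 5.20 with rGO, against 5.12 in control cells. The dimmer one had 5.11 with GO and 5.00 with rGO, against 5.03 in control cells. Their GO differences were 0.30 and 0.083, so the probe sets of this gene disagreed by more than the whole range of the 3 arrays on the dimmer one.

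Of 15 receptors measured for these proteins, 5 passed the filter, and 0 of the 5 reached 1.5-fold. Few genes past the filter did: 1.91% upward and 4.23% downward with GO, and 0.0271% and 0.127% with rGO. SCARB1, the scavenger receptor that binds serum amyloid A, was the highest of them against control, at 10.24 with GO and 9.96 with rGO, against 9.83 in control cells. FCGRT, which returns albumin to the circulation, had 10.03 with GO and 9.90 with rGO, against 9.82 in control cells. CD163, the macrophage receptor for haptoglobin-haemoglobin complexes, had 4.82 with GO and 4.68 with rGO, against 4.72 in control cells. LY96, the co-receptor of TLR4 downstream of LBP, had 5.28 with GO and 4.92 with rGO, against 5.70 in control cells. Its rGO difference of -0.77 was the only one past 1.5-fold in the list, at a level under the filter. Among all measured genes 0.282% were that far below control with rGO, and among the genes under the filter 38 of 7367 were.

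Albumin (ALB), the main carrier of plasma, had 13.49 with GO and 13.57 with rGO, against 13.50 in control cells. The 3 values spanned less than 0.1 log2 units, with differences of -0.014 (GO) and 0.073 (rGO). They lay toward the top of each array's range, and whether the signal saturates at such levels was not tested. Alpha-fetoprotein (AFP), the fetal counterpart of albumin that liver tumours often make, had 12.79 with GO and 13.16 with rGO, against 13.06 in control cells. The GO array was the lowest, 1.21-fold under control (-0.27, place 1806 from the lowest), and the rGO difference was 0.10. AFM, encoding afamin of the same family, was under the filter at 4.82 with GO and 4.91 with rGO, against 5.03 in control cells.

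ALB, AFP and AFM follow each other on chromosome 4 in RefSeq gene order. The RefSeq promoter windows of ALB and AFP are shown because these neighbouring family members had unlike GO differences (-0.014 and -0.27), and that of CRP because it is the textbook inducible gene of the set. Each window has 300 bases around the gene's start in GRCh38.p14, printed 5′ to 3′ on the gene's strand: chr4:73404037-73404336 on the plus strand for ALB, chr4:73435971-73436270 on the plus strand for AFP and chr1:159714540-159714839 on the minus strand for CRP. Capitals mark 2 motifs on either strand, TTNNGNAA (the type bound by C/EBP factors) and GTTAAT (the core of the HNF1 type).
ALB: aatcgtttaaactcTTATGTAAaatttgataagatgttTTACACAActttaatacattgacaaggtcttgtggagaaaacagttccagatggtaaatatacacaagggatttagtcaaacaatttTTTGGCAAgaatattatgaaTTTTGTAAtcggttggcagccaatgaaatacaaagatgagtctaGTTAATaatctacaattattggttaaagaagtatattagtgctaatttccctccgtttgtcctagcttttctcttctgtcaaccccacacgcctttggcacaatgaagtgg
AFP: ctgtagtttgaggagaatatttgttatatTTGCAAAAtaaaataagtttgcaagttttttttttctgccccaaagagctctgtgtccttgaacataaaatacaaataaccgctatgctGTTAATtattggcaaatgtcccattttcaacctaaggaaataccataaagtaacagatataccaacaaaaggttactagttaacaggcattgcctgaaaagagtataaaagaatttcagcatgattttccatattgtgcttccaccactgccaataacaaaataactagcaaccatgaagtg
CRP: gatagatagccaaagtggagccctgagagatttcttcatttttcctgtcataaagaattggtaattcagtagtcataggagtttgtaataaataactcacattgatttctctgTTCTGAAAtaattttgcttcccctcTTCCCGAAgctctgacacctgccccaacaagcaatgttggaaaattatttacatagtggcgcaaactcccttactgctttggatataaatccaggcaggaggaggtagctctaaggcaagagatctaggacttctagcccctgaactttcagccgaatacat
Counting from 1 at the 5′ end of each window, GTTAAT begins at base 190 in ALB and base 119 in AFP. TTNNGNAA begins at bases 15, 39, 126 and 146 in ALB, at base 30 in AFP and at bases 114 and 139 in CRP. No marked match overlaps another.

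Promoter windows were matched for 5 members (ALB, AFP, CRP, ORM1 and HPX). TTNNGNAA was in 5 of the 5 and in 36.8% of 35116 promoters, and GTTAAT was in 2 of the 5 and in 6.88% of promoters. The box TATAAA was in AFP, CRP and ORM1, and in 11.5% of promoters. The letters TTCNNNGAA (STAT type) were in 0 of the 5 windows and in 7.66% of promoters. The longer NF-kappa-B motif and the full HNF1 motif, which contains GTTAAT, were also in 0 of the 5, and in 1.91% and 0.0057% of promoters. Such matches describe letters and not binding, and these arrays carry no measurement of binding.

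Transthyretin (TTR), a negative acute phase protein that carries thyroxine and the retinol-binding protein, had 12.08 with GO and 11.54 with rGO, against 11.38 in control cells. Both exposed arrays lay above control, with GO the highest. TTR was 1.62-fold higher with GO (0.70, place 112 from the highest of 11050 genes) and 1.12-fold higher with rGO (0.16, place 839).

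The genes of its partners did not stand as high. RBP4, the retinol carrier that travels bound to transthyretin, had 12.09 with GO and 12.14 with rGO, against 12.08 in control cells. SERPINA7, another thyroxine carrier of plasma, had 11.03 with GO and 11.23 with rGO, against 11.31 in control cells, the opposite side of control from TTR.

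**Figure D3:**
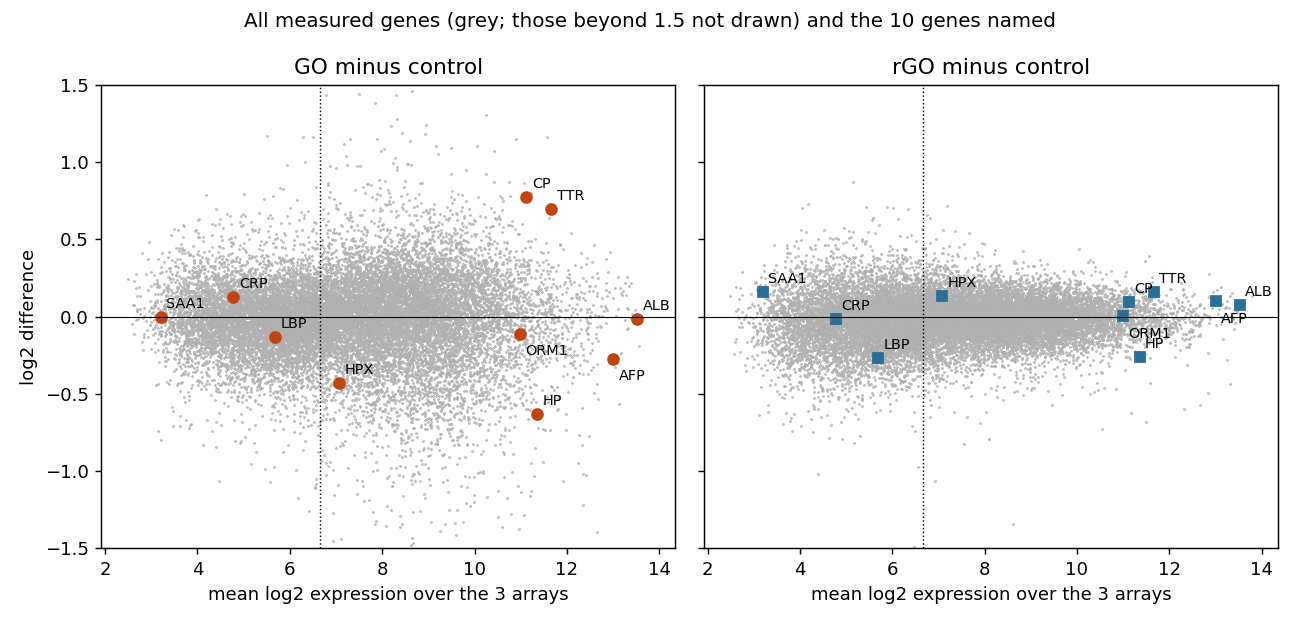
Each panel plots the log2 difference from the control array against the mean log2 expression over the 3 arrays. Measured genes are in grey, the 10 plasma protein genes are labelled symbols and the level filter is a dotted line. Genes beyond the range of the vertical axis, among them HAMP with GO, are not drawn. With GO, CP and TTR lie toward the upper edge of the cloud and HP toward the lower, and with rGO the cloud is narrower and the 10 genes lie between -0.27 and 0.16.

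As a set the 10 members had no common direction with GO. Their median difference was -0.063, with 3 above control and 7 below, against a median of -0.0059 and 48.7% above control over all 18417 genes. The range was -0.63 (HP) to 0.78 (CP). With rGO the median was 0.084, with 7 above control and 3 below, against -0.016 and 44.9% over all genes, and the range was -0.27 (LBP) to 0.16 (TTR). With GO the positive HP and CP lay on opposite sides of control, and the negative TTR was higher while ALB stood at -0.014. CP and TTR were the only members past the filter above control, and HPX (-0.43), AFP (-0.27) and ORM1 (-0.11) lay below it. Under the filter CRP stood at 0.13, SAA1 at -0.0011 and LBP at -0.13. Whether the positive and negative classes differed was not tested.

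The spread of all genes past the filter gives a scale for these sizes. The 5th and 95th percentiles of the GO differences were -0.55 and 0.42, and CP, TTR and HP lay outside them. Those of the rGO differences were -0.23 and 0.19, and of the 7 members past the filter only HP lay outside them. Where a gene had 2 probe sets past the filter, the gap between their differences was divided by the square root of 2. The robust SD of the result was 0.080 (GO) and 0.054 (rGO) over 365 genes. It is a spread per probe set, and the gap between the 2 probe sets spreads wider. A further 66 genes, whose 2 probe sets had identical values, were left out. This SD also leaves out the variation between dishes of cells, which 1 array per group does not measure.

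Among other positive acute phase genes, 16 of the 20 measured passed the filter, with 11 above control with GO and a median of 0.033. All genes past the filter had 51.1% above control and a median of 0.0061. Of these 16, 0 were 1.5-fold above control and 3 were 1.5-fold below it, against 1.91% and 4.23% of all genes past the filter. The lowest was HAMP, which encodes the iron hormone hepcidin, at 7.16 with GO and 9.48 with rGO, against 9.87 in control cells. FGB, the beta chain of the clotting protein fibrinogen, had 10.77 with GO and 11.52 with rGO, against 11.62 in control cells. FGG, the gamma chain, had 11.59 with GO and 12.10 with rGO, against 12.23 in control cells.

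The third fibrinogen chain did not follow the others, since FGA had 12.32 with GO and 12.31 with rGO, against 12.27 in control cells. SERPINA3, the protease inhibitor antichymotrypsin, had 12.75 with GO and 12.17 with rGO, against 12.37 in control cells, higher than control with GO and lower with rGO. With rGO, 8 of the 16 were above control, against 46.8% of all genes past the filter, and HAMP had the largest difference (-0.40). The count past 1.5-fold was 0, against 0.0271% above control and 0.127% below among all genes past the filter.

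Among other carrier and negative acute phase genes, 14 of the 17 measured passed the filter, with 6 above control with GO and a median of -0.055. The values over all genes past the filter were 51.1% and 0.0061. Of these 14, 0 were 1.5-fold above control and 1 was 1.5-fold below it, against 1.91% and 4.23% of all genes past the filter. The 1 below was SERPINC1, the gene of the clotting inhibitor antithrombin (-0.59). SERPINA6, the cortisol carrier, had 10.97 with GO and 11.34 with rGO, against 11.51 in control cells. SELENOP, the selenium carrier, had 12.24 with GO and 12.53 with rGO, against 12.61 in control cells. PON1, an esterase of high-density lipoprotein, was under the filter, at 5.38 with GO and 5.93 with rGO, against 6.26 in control cells. With rGO the largest difference among the 14 was that of SHBG, the sex steroid carrier (0.29). Their median was 0.024, against -0.0084 over all genes past the filter.

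**Figure D4:**
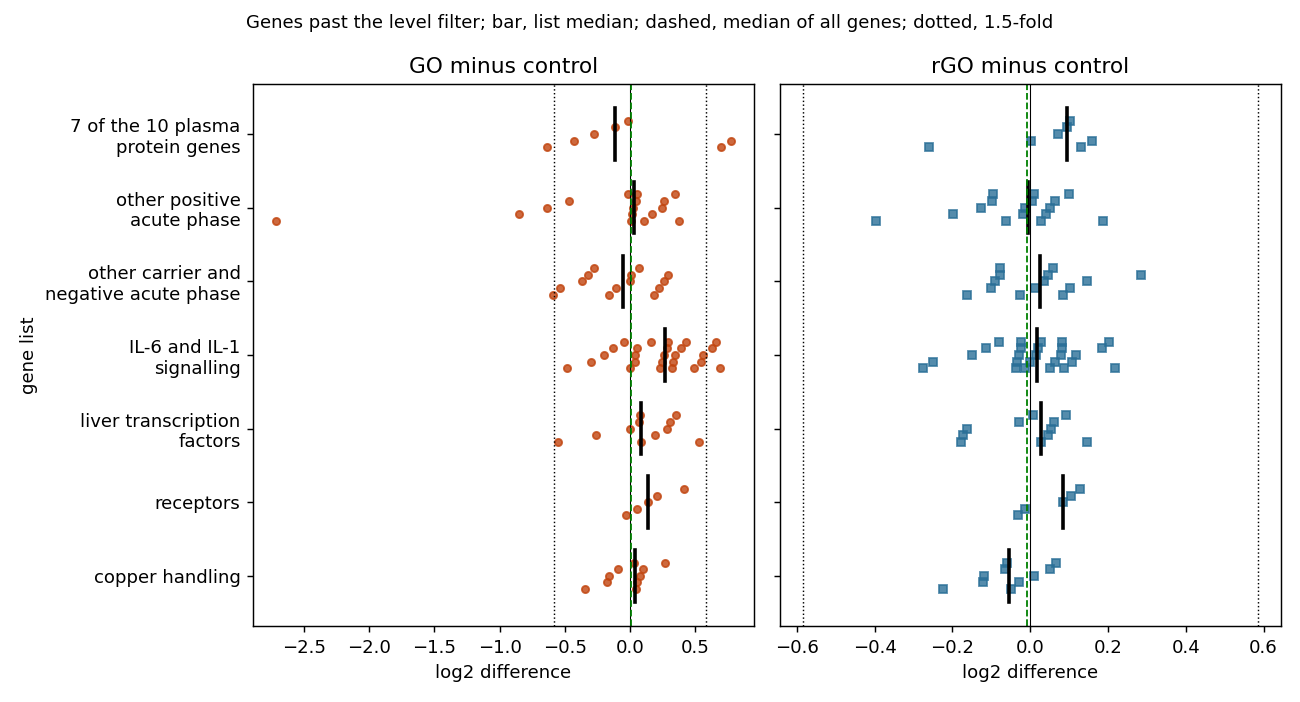
Each point is the log2 difference of 1 gene past the level filter from the control array, by gene list, with GO on the left and rGO on the right on different scales. Black bars are list medians and dashed lines the medians of all genes past the filter. The signalling list has its GO median at 0.27, the 7 plasma protein genes have theirs at -0.11, and the single point far to the left is HAMP.

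The signalling genes that feed the acute phase response were mostly above control with GO. Of 26 past the filter 20 were above control, against 51.1% of all genes past the filter, and their median was 0.27 against 0.0061. At least 1.5-fold higher were 3 of the 26, against 1.91% of all genes past the filter, and 0 were at least 1.5-fold lower, against 4.23%. IL6R, the interleukin-6 receptor, had 8.66 with GO and 7.94 with rGO, against 7.98 in control cells. CEBPD, a C/EBP transcription factor of the acute phase, had 9.11 with GO and 8.65 with rGO, against 8.45 in control cells. IL1RN, the secreted antagonist of interleukin-1 and thus a brake on the pathway, had 9.17 with GO and 8.56 with rGO, against 8.54 in control cells.

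Other members of the list lay on both sides of control with GO, and 6 of the 26 lay below it. At least 0.32 log2 units higher with GO were 11 of the 26, and 1 was as far below. Among the 11050 genes past the filter 1062 were that far above control and 1470 that far below. LIFR, the receptor of leukaemia inhibitory factor, stood at -0.49 with GO and NFKBIA, the inhibitor of NF-kappa-B, at -0.30. SOCS3, the feedback inhibitor that interleukin-6 induces, was under the filter at 6.24 with GO and 6.10 with rGO, against 6.30 in control cells. STAT3, the transcription factor the receptor activates, had 11.22 with GO and 11.04 with rGO, against 10.94 in control cells. With rGO 14 of the 26 were above control, and the median was 0.018. Over all genes past the filter 46.8% were above control, and the median was -0.0084. None of the 26 reached 1.5-fold, against 0.0271% above control and 0.127% below among those genes. The largest rGO differences among the 26 were those of SOCS1, another feedback inhibitor (-0.28), and IL1R1, the interleukin-1 receptor (-0.25).

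Among 11 measured transcription factors of plasma protein genes, all past the filter, 8 were above control with GO and the median was 0.084. Over all genes past the filter 51.1% were above control, with a median of 0.0061. The count past 1.5-fold was 0, a size that 1.91% of all genes past the filter reached upward and 4.23% downward. CEBPA, which drives albumin and other mature hepatocyte genes, had 8.92 with GO and 9.30 with rGO, against 9.48 in control cells. ZBTB20, a repressor of AFP described in mice, had 8.15 with GO and 7.77 with rGO, against 7.63 in control cells. ZHX2, another such repressor in mice, had 9.56 with GO and 9.37 with rGO, against 9.28 in control cells. ZHX2 was not picked by the naming rule. Whether either repressor had a part in the AFP difference was not tested. FOXA2, a liver forkhead factor, stood at 0.35 with GO, and FOXA3 had the largest rGO difference of the list (-0.18).

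Hepatocyte markers were measured for 8 genes, which all passed the filter, and the log2 of their summed level was 15.25 with GO and 15.24 with rGO, against 15.20 in control cells. The corresponding sums were 13.61, 13.54 and 13.41 for 10 leukocyte markers, 10.59, 10.48 and 10.53 for 11 stellate, fibroblast and endothelial markers, and 12.19, 12.01 and 12.13 for 5 cholangiocyte markers, in the order GO, rGO and control. In each of these 3 lists 3 genes passed the filter. Such sums rest mostly on the brightest genes. Of the 8 hepatocyte markers 7 were above control with GO, against 51.1% of all genes past the filter, while FGB was 1.80-fold lower (-0.85). The leukocyte sum rests mostly on LYZ, the lysozyme gene (13.43, 13.38 and 13.23), while the defining PTPRC stood at 3.56, 3.76 and 3.65. KRT19, a bile duct keratin, was the only marker of other cell types past 1.5-fold in either exposure, at 10.32 with GO and 9.36 with rGO, against 9.53 in control cells. The part of these markers in the differences of the plasma protein genes was not tested.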

How the data were processed

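Total RNA of 3 HepG2 samples was made into biotin-labelled cDNA and hybridised to Affymetrix arrays, per the labels' protocols. The authors deposited log2 expression values for 33297 probe sets. RMA and MAS5 appear in the submitters' processing notes with no role, and the array medians lie close together, as after normalization between arrays. Any further scaling is unknown, no genome build is named, and precision is limited by the number of arrays.

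Probe sets were named through the platform's annotation, which can be old, and 19460 with 1 symbol were kept. Each of 18417 genes was represented by its probe set with the highest mean. Groups came from the treatment label. Differences of log2 values were taken between 2 single arrays, with no test. The size rule was also run on simulated differences, drawn with the rGO spread alone and with no variation between dishes. That run cannot show how often the rule errs in these data. The members and gene lists were chosen with earlier results of these data known. The naming rule took all members, their close copies, of each list the 3 genes past the filter with the largest difference in each comparison, and every gene past 1.5-fold; other list genes printed were chosen after their values were seen. Alternatives were quantile normalization, median centring, loess (span 0.3), averaged probe sets, other thresholds and other filters. Promoters came from RefSeq. Python 3.11.15, numpy 2.4.6, pandas 2.3.3, statsmodels 0.14.6 and matplotlib 3.10.9 were used.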

Additional observations from a re-analysis of the deposited data

How the results depend on the processing

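With GO 3 members (2 higher, 1 lower) were past 1.5-fold under quantile normalization, median centring, loess and averaged probe sets, as in the deposited values. At the lower threshold of 0.32 log2 units 4 were counted (2 higher, 2 lower), and at 2-fold 0. Of all 18417 genes, 1379 were past the lower threshold upward with GO and 2006 downward. With rGO 0 members were counted in all of these settings, and 253 and 589 of all genes were past the lower threshold. The median of the members with GO ran from -0.11 (the 7 past the filter) to -0.039 (median centring), and their mean was 0.00016. With rGO the median ran from 0.063 to 0.096, and the mean was 0.018. That mean lay further from the main rGO median of 0.084 than the robust SD per probe set (0.054), so the rGO centre depends on the measure used. Of single members, none moved by more than 0.06 log2 under any scaling, and with GO only ALB and SAA1 changed sign, to 0.0093 and 0.023 under median centring, while with rGO 1 member lying near 0 did so under each of quantile normalization, median centring and loess. Another 50 genes were recomputed, which include all those printed above with 1 symbol. Of these only SAA2 and RBP4 moved by the robust SD per probe set (0.080 with GO, 0.054 with rGO) or more. The gap between 2 probe sets of a gene spreads wider than that SD. SAA2 moved to 0.19 with GO and 0.027 with rGO when its 2 probe sets were averaged, and RBP4 to 0.090 with GO under quantile normalization. No paired analysis was possible because each group has 1 array.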

Other observations

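A pair of probe sets of the serum amyloid A genes carry several symbols and belong to no comparison above. The one listed for SAA4 and the SAA2-SAA4 readthrough had 11.02 with GO and 11.27 with rGO, against 11.29 in control cells. SAA4 encodes the constitutive serum amyloid A of lipoproteins, which, unlike SAA1, is made without an inflammatory signal. The one listed for both SAA1 and SAA2 had 3.43 with GO and 3.27 with rGO, against 3.37 in control cells. Its differences from control were 0.057 with GO and -0.10 with rGO, beside -0.0011 and 0.16 for the SAA1 probe set. The probe set listed for both SAA1 and SAA2 and the SAA1 probe set lay under the level filter, unlike the one listed for SAA4. The GO difference of SAA1 is too near 0 for its sign to be read.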
